A study of Mus musculus with 28 samples.

Results

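Heat shock proteins of the cytosol and mitochondria and the chaperones of the endoplasmic reticulum (ER) were followed in mouse bone marrow-derived macrophages. The set held 34 named genes, of which 16 act in the cytosol or mitochondria and 18 act in or for the ER. A gene was represented by the probe set (a group of array probes for 1 transcript) that carried its symbol in the platform annotation and had the highest mean over all 28 arrays. On that rule 33 of the 34 genes were measured, 15 cytosolic or mitochondrial and 18 of the ER, among 18193 genes in all. Hsf1, the transcription factor that drives the heat shock response, was not analysed here.

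Cytosolic chaperones bind unfolded proteins, and Hsp70 proteins such as Hspa1a and Hspa1b do so in cycles set by J-domain partners (the Dnaj proteins) and by nucleotide exchange factors such as Bag3, Hspa4 and Hsph1. Stress that unfolds proteins frees Hsf1, which raises the inducible members. In the ER, Hspa5 (BiP) plays the Hsp70 role together with its own J-domain partners, disulfide isomerases and lectin chaperones, and an overload of unfolded protein there switches on the unfolded protein response through the sensors Ire1, Atf6 and Perk. Macrophages secrete heavily, so both systems are in constant use in these cells.

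All cells were grown from total bone marrow, and the C57BL/6 J donor mice were 12 weeks old. In the compound experiment, cells of genotype Nrf2 +/+ (WT) or Nrf2 -/- (KO, without the transcription factor encoded by Nfe2l2) were kept for 4 h with RA839 or with the solvent alone, both at 0.2% DMSO. RA839 is a small molecule that binds Keap1, the protein that marks Nrf2 for degradation. In the siRNA experiment, Nrf2 +/+ cells received siControl, siKeap1-1 or siKeap1-2, the last pair directed at Keap1. There were 4 arrays in each of the 7 groups, called biological replicates in the design text, which also has RA838 in place of RA839 at 1 point. The RA839 dose, the siRNA sequences, the time from transfection to harvest and the construction of the Nrf2 deletion were not given in the sources used here. Whether cells of 1 animal were pooled or shared between groups was not given either.

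Values are log2 expression values from RMA, so a difference of 1 is a doubling. A change is a log2 difference ± its standard error with n = 4 arrays per group. A gene was called when its limma p, Benjamini-Hochberg adjusted over the 18193 genes of a comparison, was under 0.05. RMA compresses differences of dim probe sets, so folds of members with low values are likely to be understated. Levels are set side by side only for the same probe set, apart from the marker lists below. Those hold different probe sets, so their brightness does not give the share of a cell type. In bulk samples, fewer cells of a type and less RNA per cell cannot be told apart.

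The targeted genes followed the labels. Nfe2l2 lay between 3.18 and 3.52 on the KO arrays and between 11.85 and 12.96 on the WT arrays of the compound experiment. Keap1 lay between 8.93 and 9.47 with its siRNAs and between 10.94 and 11.16 with siControl. Of 10 macrophage markers 9 were measured, with a mean between 12.11 and 13.02 per array. The other 9 marker lists had means per array between 3.75 (mast cells and basophils) and 7.75 (neutrophils). Single genes of these lists were bright. Group means were 12.43 to 13.61 for the neutrophil marker Mmp8 and 9.79 to 11.41 for the endothelial marker Vwf. They were 7.56 to 9.68 for the B cell marker Ighm and 8.03 to 9.51 for the dendritic marker Zbtb46. 1 array stood apart, WT RA839 array 2, whose 3′ minus 5′ signal for Gapdh was 3.74 against 0.77 to 1.00 on the other compound arrays, and 3.10 against at most 2.04 for Actb. Values without that array are given beside several of the larger changes and the calls that it moved between genotypes under RA839. The Actb signal also separated the genotypes, at 1.28 to 1.45 on the KO arrays and 1.68 to 2.04 on the remaining WT arrays. It moves with every comparison of KO and WT below, and its part in them was not tested. The median of an array was 5.61 to 5.71 among compound arrays and 5.91 to 5.96 among siRNA arrays, and every test stayed within 1 experiment.

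Of the 33 genes, 21 were called in at least 1 of 8 comparisons, 11 cytosolic or mitochondrial and 10 of the ER, where 47.9% of all genes were. The remaining 12 were called in none. The calls numbered 43 in all. They fell in the comparisons of genotype and of Keap1 siRNA, and none fell in the comparisons of RA839 with DMSO. The map of changes sets all 33 genes side by side.

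**Figure D1:**
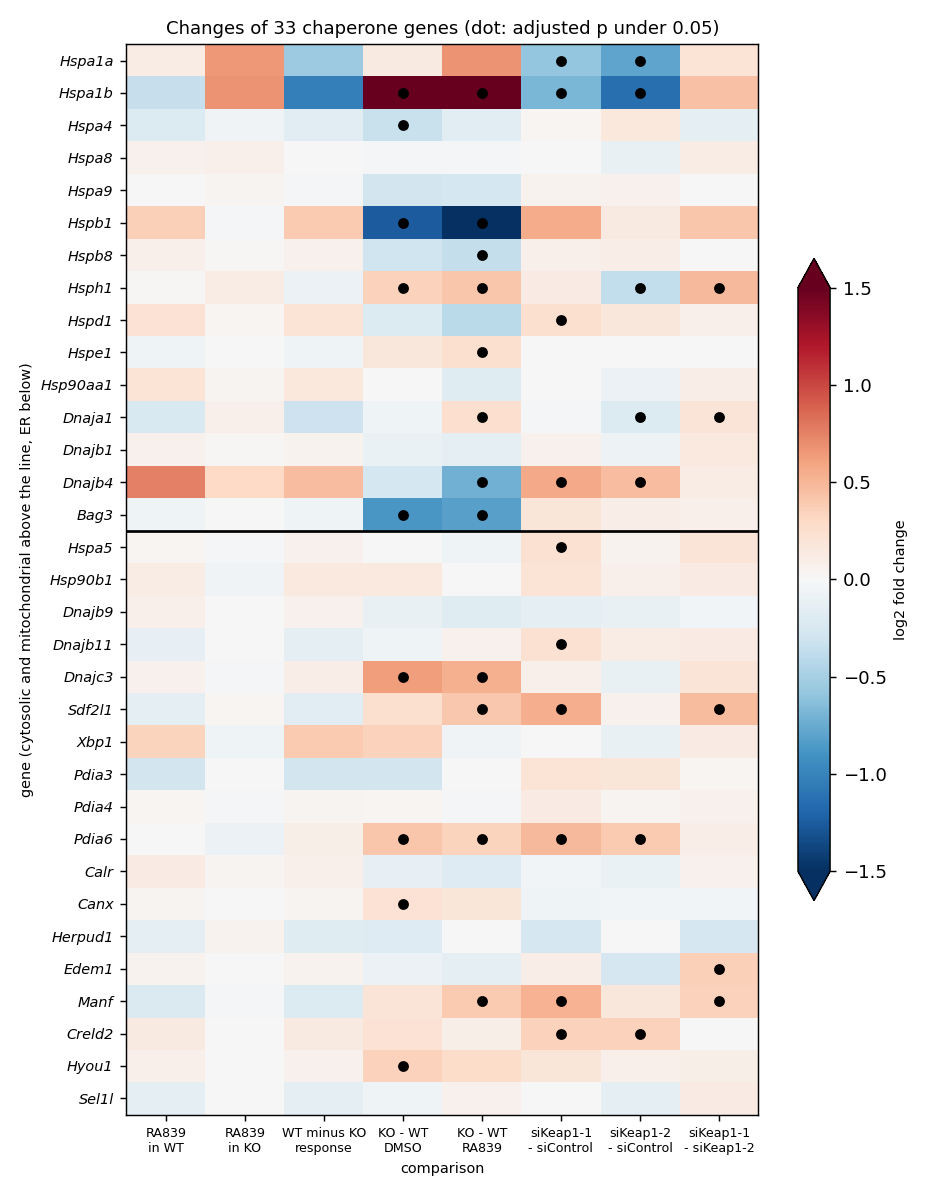
Log2 fold change (colour, cut at 1.5 in either direction) of 33 chaperone genes (rows) in 8 comparisons (columns), with a dot where the limma adjusted p was under 0.05. The columns for RA839 hold no dot, Hspa1b was higher in KO than in WT and lower with the Keap1 siRNAs, and the dots of the ER genes below the line are all on rises.

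The stretches upstream of several members are shown because the ER genes that rose in these comparisons included known targets of the unfolded protein response, whose promoters can hold an ER stress element (ERSE). RefSeq windows of assembly GRCm38.p6, 250 bases before the start of a gene, were held for 28 of the 34 members. Hspa8, Hspa9, Hsp90aa1, Hsf1, Manf and Hyou1 had none. The ERSE, searched as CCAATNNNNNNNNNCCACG on both strands, was found in 7 of 16 ER genes (Hspa5, Hsp90b1, Dnajc3, Pdia6, Calr, Canx and Creld2), in 0 of 12 cytosolic or mitochondrial genes and in 0.13% of 27025 genes. The windows of the 5 of them that were called in a comparison follow, 5′ to 3′ on the strand of the gene, with the ERSE in capitals.
Hspa5 (chr2:34771840-34772089, plus strand): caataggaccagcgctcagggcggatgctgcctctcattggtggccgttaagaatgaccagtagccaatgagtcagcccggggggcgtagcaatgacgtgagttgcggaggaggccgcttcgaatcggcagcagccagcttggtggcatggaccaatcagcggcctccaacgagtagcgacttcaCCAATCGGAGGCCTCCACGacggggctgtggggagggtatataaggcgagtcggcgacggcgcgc
Pdia6 (chr12:17266339-17266588, plus strand): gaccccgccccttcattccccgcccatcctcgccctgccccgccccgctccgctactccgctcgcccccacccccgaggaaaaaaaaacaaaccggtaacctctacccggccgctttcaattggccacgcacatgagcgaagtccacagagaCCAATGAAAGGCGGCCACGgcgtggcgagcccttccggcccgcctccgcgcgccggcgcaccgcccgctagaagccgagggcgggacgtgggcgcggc
Creld2 (chr15:88819396-88819645, plus strand): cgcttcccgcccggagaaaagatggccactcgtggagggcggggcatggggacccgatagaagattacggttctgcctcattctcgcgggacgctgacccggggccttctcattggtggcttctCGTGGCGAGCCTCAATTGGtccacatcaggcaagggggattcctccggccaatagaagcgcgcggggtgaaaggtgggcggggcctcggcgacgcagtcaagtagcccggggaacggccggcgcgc
Dnajc3 (chr14:118937682-118937931, plus strand): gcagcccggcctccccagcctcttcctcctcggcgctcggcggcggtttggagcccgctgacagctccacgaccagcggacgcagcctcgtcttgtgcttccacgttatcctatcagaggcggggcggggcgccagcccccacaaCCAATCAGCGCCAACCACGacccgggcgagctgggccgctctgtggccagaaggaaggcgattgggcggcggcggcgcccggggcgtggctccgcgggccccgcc
Canx (chr11:50325674-50325923, minus strand): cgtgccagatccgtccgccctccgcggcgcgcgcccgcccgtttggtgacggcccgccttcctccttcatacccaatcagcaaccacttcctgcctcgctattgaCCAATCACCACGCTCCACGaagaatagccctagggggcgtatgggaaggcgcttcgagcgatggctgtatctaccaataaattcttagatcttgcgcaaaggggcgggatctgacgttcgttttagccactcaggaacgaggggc

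The element began 65 bases before the start of Hspa5, 98 before Pdia6, 105 before Dnajc3, 126 before Creld2 and 145 before Canx. In Creld2 it lies on the other strand, so that it reads CGTGG first. The heat shock element, searched as TTCNNGAANNTTC on both strands, was found in 2 of 12 cytosolic or mitochondrial genes, 0 ER genes and 0.514% of all genes. Those were Hspd1 and Hspe1, the mitochondrial chaperonin pair, which are read in opposite directions from overlapping windows and share the element. The matches on both strands overlap and are in capitals in the window of Hspd1, shown because this gene rose with siKeap1-1. Hspe1, with the same element, changed by 0.00 with either Keap1 siRNA.
Hspd1 (chr1:55087933-55088182, minus strand): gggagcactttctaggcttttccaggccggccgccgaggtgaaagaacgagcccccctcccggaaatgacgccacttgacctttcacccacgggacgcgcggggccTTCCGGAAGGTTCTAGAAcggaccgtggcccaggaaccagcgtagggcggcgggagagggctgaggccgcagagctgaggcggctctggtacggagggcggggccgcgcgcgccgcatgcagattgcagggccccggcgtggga

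The unfolded protein response element TGACGTGG was found in 0 members and in 0.603% of all genes. The antioxidant response element, the motif bound by Nrf2, was searched in its core form TGACNNNGC on both strands. It was found in 2 cytosolic genes (Hsph1 and Dnajb1), 3 ER genes (Pdia3, Calr and Herpud1) and 11.5% of all genes. In Calr it stood in the same window as an ERSE, without overlap. A match is a description of letters, not a bound site or a cause, and no match says only that these letters are not in the window.

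The first question was whether RA839 moved chaperone genes in WT cells. No member passed the threshold after 4 h, while 0.66% of all genes did (0.572% higher, 0.0879% lower). At an unadjusted p under 0.05, limma had 4 of 33 (10.4% of all genes), and with the replicate number as a block 1 was called (2.67% of all genes). The median change was 0.07 over the 15 cytosolic or mitochondrial genes and 0.04 over the 18 ER genes, against -0.01 over all genes. Within the ER set every change lay between -0.27 (Pdia3) and 0.33 (Xbp1), and the largest 95% interval bound was 0.71. Both extremes rest on WT RA839 array 2, and without it Pdia3 changed by -0.05 and Xbp1 by 0.13. Without that array Hsp90aa1 likewise changed by 0.09, against 0.20 with it, and Hspd1 by 0.00, against 0.22.

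Dnajb4, a J-domain partner of Hsp70, had the largest change, on the probe set used. Its values were 9.74, 9.91, 9.40 and 9.51 in DMSO and 10.38, 10.46, 10.39 and 10.37 with RA839. The groups did not overlap (5.79% of all genes did not), and every RA839 array stood above every DMSO array. The change was 0.76 ± 0.17, with a limma adjusted p of 0.0547. Leaving out WT RA839 array 2, it was 0.74 (limma adjusted p 0.118). With the replicate number as a block, the adjusted p was 0.00314. Without KO RA839 array 2 or 3, which serve only to estimate the spread, it fell under the threshold (lowest 0.0252), and without other arrays it reached 0.165. The probe sets of Dnajb4 disagreed here, with 0.76 on 1451177_at, 0.47 on 1431734_a_at and -0.16 on the dim 1439524_at, none called.

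The other heat shock genes moved less. Hspa1b changed by -0.35 ± 0.31 (95% interval -1.01 to 0.32) and Hspb1, a small heat shock protein, by 0.36 ± 0.19 (-0.03 to 0.76). Leaving out WT RA839 array 2, these changes were -0.47 and 0.25. Dnaja1, another J-domain protein, ranged from 11.65 to 11.80 in DMSO and from 11.39 to 11.55 with RA839, without overlap, but its change of -0.23 ± 0.07 had a limma adjusted p of 0.236. Hspa4 changed by -0.21 ± 0.09 with an adjusted p of 0.435 by limma.

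In KO cells no member was called for RA839 either, as 0% of all genes were, also with the replicate block, and 2 members had an unadjusted p under 0.05 (1.76% of all genes). They were the paired Hsp70 genes. Hspa1b changed by 0.67 ± 0.31 and Hspa1a by 0.65 ± 0.27, each with a limma adjusted p of 1. Medians were 0.04 and 0.00 for the cytosolic and ER genes, and 0.00 for all genes. Hspa8 was the only member whose groups did not overlap there (2.11% of all genes did not), with a change of 0.08 ± 0.06. The ER genes lay between -0.09 (Pdia6) and 0.05 (Herpud1).

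The difference of the RA839 response between WT and KO called 0 of 33 members and 0.115% of all genes (0.363% with the block), with 2 members at an unadjusted p under 0.05 (3.73% of all genes). These were Hspa1b, at -1.02 ± 0.44 (limma adjusted p 1), and Dnaja1, at -0.31 ± 0.10 (limma adjusted p 0.934). For Dnajb4 the difference was 0.46 ± 0.24, so its larger value in WT was not shown to differ from that in KO. Without WT RA839 array 2, limma called 0 members in all 3 comparisons (0.748%, 0% and 0.143% of all genes).

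Genotype moved more of these genes, in both directions. In DMSO, 9 of 33 members (27.3%) were called between KO and WT, close to the 25.1% of all genes (11.2% higher, 13.8% lower). Among cytosolic and mitochondrial genes 2 were higher in KO (Hspa1b and Hsph1) and 3 were lower (Hspb1, Bag3 and Hspa4). Among ER genes 4 were higher (Dnajc3, Pdia6, Canx and Hyou1) and 0 lower. The medians were -0.10 for the cytosolic and 0.09 for the ER genes, against -0.02 over all genes. Groups did not overlap for 12 members (36.4%), against 29.5% of all genes. In a fit of only the genes brighter than the median gene, 9 of 30 members were called, where 30.3% of those genes were.

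Under RA839, 12 of 33 members (36.4%) were called between KO and WT, against 30.4% of all genes (14.6% higher, 15.8% lower). There were 4 cytosolic or mitochondrial genes higher (Hspa1b, Hsph1, Hspe1 and Dnaja1) and 4 lower (Hspb1, Hspb8, Dnajb4 and Bag3). There were 4 ER genes higher (Dnajc3, Sdf2l1, Pdia6 and Manf) and again 0 lower. Medians were -0.17 for the cytosolic and 0.03 for the ER genes, against -0.01 over all genes, and groups did not overlap for 12 members, against 30.9% of all genes. In the fit of only the brighter genes 11 of 30 members were called, where 38.8% of those genes were. The genotype comparisons share no array with each other, since each has its own controls. They are not independent, since they share the estimate of spread and same-numbered arrays deviated together between the treatments of a genotype (r of 0.66 to 0.70 over genes in KO and 0.27 to 0.46 in WT). Called in both were 6 of 33 members (Hspa1b, Hspb1, Hsph1, Bag3, Dnajc3 and Pdia6), near the 19.3% of all genes.

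Hspa1b, an inducible Hsp70, showed the largest rise. In DMSO it read 9.56, 8.92, 9.07 and 9.59 on the WT arrays and 11.65, 11.51, 10.22 and 10.19 on the KO arrays. KO arrays 1 and 2 stood above arrays 3 and 4 by over 1, and all 4 lay above every WT array. The change was 1.61 ± 0.31, or 3.05-fold, with a limma adjusted p of 0.00153. With RA839 the WT arrays read 8.80, 9.31, 8.41 and 9.23 and the KO arrays 11.45, 11.52, 11.85 and 11.44. Here the 4 KO arrays lay close together, and the change was 2.63 ± 0.31, or 6.18-fold, with a limma adjusted p of 1.89e-05. Leaving out WT RA839 array 2, it was 2.75. Hspa1a encodes a nearly identical protein, and its probe set was dim, with group means between 5.99 and 6.77. It was not called in either comparison (0.13 ± 0.27 in DMSO, 0.67 ± 0.27 under RA839). Probes may read transcripts of both copies, so which of the pair gave these signals is uncertain.

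Hspb1 went the other way. Its values in DMSO were 5.89, 6.07, 6.64 and 6.28 in WT and 5.23, 4.94, 4.94 and 4.76 in KO. With RA839 they were 6.26, 6.94, 6.65 and 6.49 in WT and 5.38, 4.94, 4.84 and 4.63 in KO. All KO arrays lay below all WT arrays. Hspb1 fell by 1.25 ± 0.19 in DMSO (limma adjusted p 0.000208) and by 1.64 ± 0.19 under RA839 (limma adjusted p 1.27e-05). Leaving out WT RA839 array 2, the change under RA839 was -1.52. The signal was dim, and a second probe set differed, as described below.

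Bag3, a nucleotide exchange factor that works with Hspb8 in the removal of damaged proteins, was lower in KO as well. It read 10.53, 10.54, 10.76 and 10.80 in WT and 9.72, 9.54, 9.95 and 9.94 in KO in DMSO. With RA839 it read 10.63, 10.43, 10.65 and 10.67 in WT and 9.66, 9.58, 9.90 and 9.95 in KO. All KO arrays lay below all WT arrays, and the treatments overlapped within each genotype. The changes were -0.87 ± 0.11 and -0.82 ± 0.11, with limma adjusted p of 7.77e-05 and 9.2e-05. Leaving out WT RA839 array 2, the change under RA839 was -0.87.

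**Figure D2:**
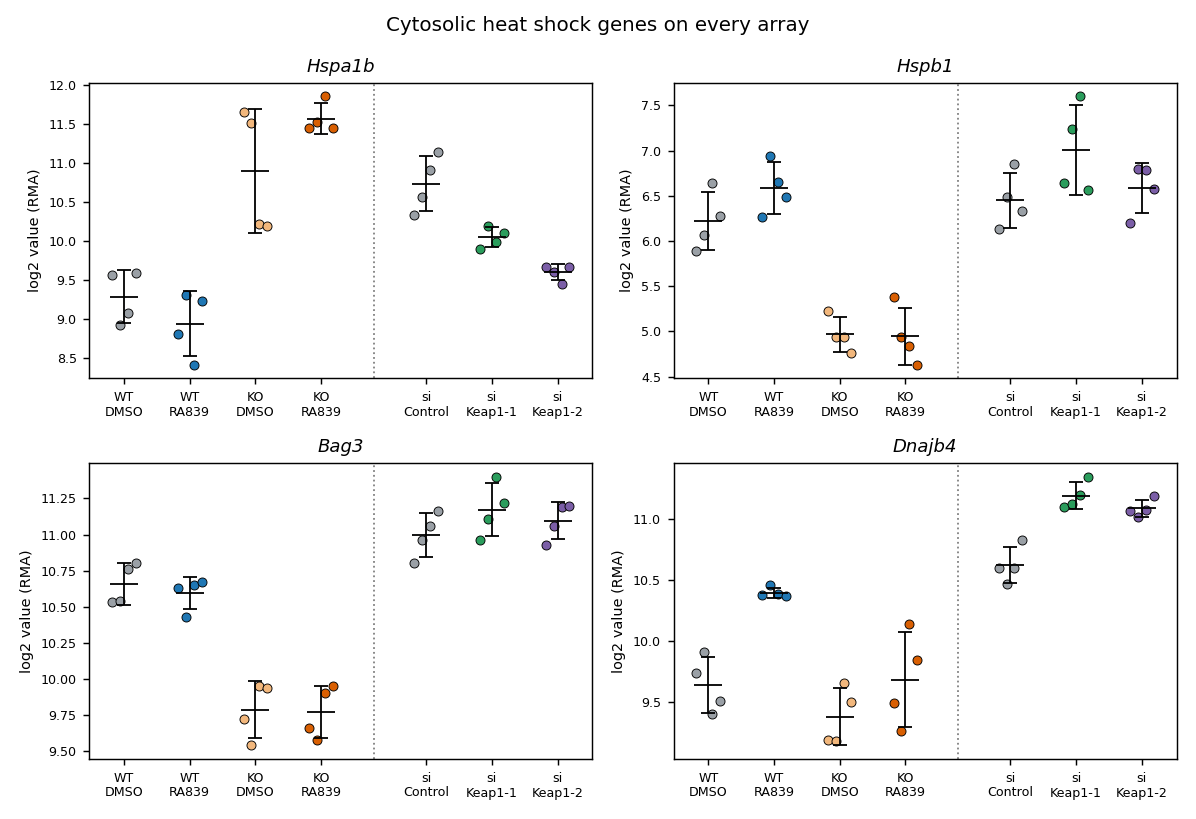
Log2 value (RMA) on each of 28 arrays (points) for Hspa1b, Hspb1, Bag3 and Dnajb4 in the 7 groups, with the mean and standard deviation of 4 arrays (bars) and a dotted line between the experiments. In the compound experiment the KO arrays lie above the WT arrays for Hspa1b and below them for Hspb1 and Bag3, and Dnajb4 with RA839 lies between 10.37 and 10.46 in WT and between 9.26 and 10.14 in KO.

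Dnajb4 was called lower in KO under RA839 and not in DMSO. With RA839 the KO arrays read 9.49, 9.26, 10.14 and 9.85, below the 10.37 of the lowest WT array, and the change was -0.72 ± 0.17 (limma adjusted p 0.0048). Leaving out WT RA839 array 2, it was -0.70. In DMSO the KO arrays read 9.19, 9.18, 9.66 and 9.50, overlapping with WT, and the change was -0.26 ± 0.17 (limma adjusted p 0.286). Of its 3 probe sets only the one used was called under RA839, with -0.34 on 1431734_a_at and -0.15 on 1439524_at, and with the mean of all probe sets the call ended (limma adjusted p 0.0561). Whether the genotype differences differ between treatments is the same test as the difference of the RA839 responses above, which Dnajb4 did not pass.

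Hsph1 and Hspa4 are relatives of Hsp70 that exchange its nucleotide, and they moved in opposite directions. Hsph1 read 13.07, 13.00, 13.02 and 13.17 in WT and 13.34, 13.28, 13.46 and 13.52 in KO in DMSO, and 13.06, 13.24, 12.98 and 13.05 against 13.40, 13.39, 13.62 and 13.62 with RA839. The genotypes did not overlap in either, and Hsph1 rose by 0.34 ± 0.09 and 0.42 ± 0.09 (limma adjusted p 0.0113 and 0.00209). Hspa4 read 12.74, 12.64, 12.96 and 12.93 in WT and 12.44, 12.40, 12.54 and 12.56 in KO in DMSO, again without overlap. It fell by 0.33 ± 0.09 (limma adjusted p 0.0141), and under RA839 its change was -0.17 ± 0.09 (0.162 by limma).

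Smaller calls under RA839 were those of Hspe1, Dnaja1 and Hspb8. Hspe1, the lid of the mitochondrial chaperonin, read 13.90, 13.53, 13.86 and 13.85 in WT and 13.97, 14.00, 14.06 and 14.07 in KO, a change of 0.24 ± 0.08 (limma adjusted p 0.0362). The low WT value is that of array 2, and without that array the change was 0.15. Dnaja1 read 11.51, 11.39, 11.47 and 11.55 in WT and 11.71, 11.61, 11.80 and 11.78 in KO, without overlap, a change of 0.25 ± 0.07 (limma adjusted p 0.0188). Hspb8, the partner of Bag3, was dim and its groups overlapped, with 5.76, 5.42, 5.43 and 5.34 in WT against 5.16, 5.39, 5.01 and 4.96 in KO, a change of -0.36 ± 0.11 (limma adjusted p 0.0263). These calls rest on few arrays. By limma, Hspe1 was no longer called without WT RA839 array 2 or KO RA839 array 2, 3 or 4 (adjusted p up to 0.0879), Dnaja1 without KO RA839 array 3 or 4 (up to 0.0565), and Hspb8 without WT RA839 array 1 or KO RA839 array 3 or 4 (up to 0.0821).

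The mitochondrial Hsp60 gene Hspd1 was not called between genotypes (-0.20 ± 0.20 in DMSO and -0.40 ± 0.20 under RA839, the latter -0.17 without WT RA839 array 2). Its KO arrays split by number, at 11.22 and 11.16 against 11.78 and 11.66 in DMSO and at 11.20 and 11.28 against 11.74 and 11.71 with RA839. KO arrays 1 and 2, low here, were the low pair for Dnajb4 and the high pair for Hspa1b in DMSO. What the replicate numbers share is not in the labels.

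Among ER genes, Dnajc3, a J-domain partner of Hspa5, had the largest rise. It read 11.49, 11.58, 11.12 and 11.23 in WT and 12.03, 12.03, 11.91 and 11.96 in KO in DMSO, and 11.38, 11.62, 11.35 and 11.37 against 11.97, 12.00, 11.94 and 11.91 with RA839. All KO arrays lay above all WT arrays. Dnajc3 rose by 0.63 ± 0.10 and 0.53 ± 0.10 (limma adjusted p 0.000324 and 0.000947), although its probe sets disagreed. Pdia6, a disulfide isomerase, read 9.21, 9.44, 9.29 and 9.35 in WT and 9.83, 9.77, 9.76 and 9.61 in KO in DMSO. With RA839 it read 9.24, 9.68, 9.26 and 9.12 in WT and 9.69, 9.64, 9.66 and 9.62 in KO, where WT array 2 reached into the KO range. It rose by 0.42 ± 0.10 in DMSO (limma adjusted p 0.00842) and by 0.33 ± 0.10 under RA839 (limma adjusted p 0.026). Leaving out WT RA839 array 2, the change under RA839 was 0.45 (limma adjusted p 0.000447).

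Sdf2l1 and Manf, both raised by ER stress, were called under RA839. Sdf2l1, which works with Dnajb11, read 10.14, 10.07, 10.34 and 10.18 in WT and 10.58, 10.55, 10.63 and 10.60 in KO, and rose by 0.41 ± 0.09 (limma adjusted p 0.00232). Manf, a cofactor of Hspa5, read 9.89, 10.32, 10.30 and 9.99 in WT and 10.49, 10.49, 10.45 and 10.61 in KO, and rose by 0.39 ± 0.10 (limma adjusted p 0.0109). Neither overlapped between genotypes. In DMSO their changes were 0.24 ± 0.09 and 0.19 ± 0.10 (limma adjusted p 0.0555 and 0.204). The differences between their RA839 responses in WT and KO were -0.17 ± 0.12 and -0.20 ± 0.15 and were not called.

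Canx, a lectin chaperone, and Hyou1, which exchanges the nucleotide of Hspa5, were called in DMSO. Canx read 13.04, 13.11, 12.89 and 12.86 in WT and 13.23, 13.21, 13.18 and 13.17 in KO, a change of 0.22 ± 0.07 (limma adjusted p 0.0374). Hyou1 read 10.61, 10.75, 10.33 and 10.59 in WT and 10.71, 10.90, 10.99 and 11.03 in KO, with overlap, a change of 0.34 ± 0.12 (limma adjusted p 0.0471). Under RA839 their changes were 0.18 ± 0.07 and 0.27 ± 0.12 (limma adjusted p 0.0731 and 0.098), and the differences between their RA839 responses, 0.04 ± 0.10 and 0.07 ± 0.17, were not called. Both sat near the threshold. By limma, Canx was no longer called without WT DMSO array 3 or 4 or any KO DMSO array (adjusted p up to 0.101). Hyou1 was lost without WT DMSO array 1, 3 or 4, WT RA839 array 1 or 3, or array 2, 3 or 4 of either KO group (up to 0.146). The call of Pdia6 under RA839 was lost without WT RA839 array 1, 3 or 4 or KO RA839 array 1 or 3 (up to 0.0837).

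Hspa5, the main chaperone of the ER, was not called between genotypes on the probe set used, although 1427464_s_at was called higher in KO (0.25 in DMSO and 0.30 under RA839). On the used 1416064_a_at, Hspa5 changed by 0.00 ± 0.07 in DMSO (95% interval -0.16 to 0.16) and by -0.06 ± 0.07 under RA839 (-0.22 to 0.09). Calr, a lectin chaperone, did not overlap between genotypes under RA839, but its change of -0.19 ± 0.09 had a limma adjusted p of 0.111. Leaving out WT RA839 array 2, limma called 15 members under RA839 (29.7% of all genes), adding Hspa1a (0.85), Canx (0.22), Hyou1 (0.37) and Pdia3 (-0.22) and losing Hspe1. It then called 12 in DMSO, where that array serves only for the spread, and the share of all genes rose as well, from 25.1% to 31.2%. Between genotypes 4 of 9 macrophage markers were called in each condition (2 higher, 2 lower), and 3 of 10 neutrophil markers were lower in DMSO and 1 under RA839, where 25.1% and 30.4% of all genes were called. Among the other lists, 4 of 7 stromal markers were lower in both, 2 of 5 NK cell markers were higher in DMSO and 1 under RA839, and 2 of 5 endothelial markers were called in both (1 higher, 1 lower). On the log2 scale the summed neutrophil signal in WT was 13.48 to 13.64 (DMSO) and 12.86 to 13.45 (RA839), and in KO it was 12.78 to 13.22 (DMSO) and 12.76 to 13.05 (RA839). The summed macrophage signal was 16.42 to 16.55 on WT arrays and 16.39 to 16.57 on KO arrays. The summed B cell signal spread widely within groups, at 8.92 to 11.71 in WT and 8.14 to 10.52 in KO (DMSO), and at 8.59 to 11.49 and 8.24 to 10.60 (RA839). Of 5 B cell markers 0 were called in DMSO and 1, higher in KO, under RA839. The part of these signals in the chaperone values was not tested.

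With siKeap1-1, 10 of 33 members (30.3%) were called against siControl, where 15.1% of all genes were (8.67% higher, 6.39% lower). Of the cytosolic and mitochondrial genes 2 were higher (Hspd1 and Dnajb4) and 2 lower (Hspa1a and Hspa1b), and of the ER genes 6 were higher (Hspa5, Dnajb11, Sdf2l1, Pdia6, Manf and Creld2) and 0 lower. Medians were 0.05 and 0.15, against 0.02 over all genes, and groups did not overlap for 12 members, against 20% of all genes. In a fit of only the genes brighter than the median gene, 13 of 29 members were called, where 32.7% of those genes were. Same-numbered arrays deviated together in this experiment, and with the replicate number as a block 16 members were called (24% of all genes). That fit added Hspb1 (0.56), Bag3 (0.18), Pdia3 (0.21) and Hyou1 (0.18) as higher and Dnajb9 (-0.15) and Herpud1 (-0.25) as lower, the last pair serving the disposal of misfolded ER proteins. Single arrays moved some of these values by over 1.5 times, Hspb1 to 0.36 and Bag3 to 0.10 without siKeap1-1 array 3, and Bag3 to 0.11 and Herpud1 to -0.15 without siControl array 1.

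With siKeap1-2, 7 of 33 members (21.2%) were called, against 11.2% of all genes (6.32% higher, 4.89% lower). Dnajb4 was the only cytosolic gene higher in that fit, and Hspa1a, Hspa1b, Hsph1 and Dnaja1 were lower. Pdia6 and Creld2 were the ER genes higher, and 0 were lower. Medians were 0.00 and 0.05, against 0.03 over all genes, and groups did not overlap for 11 members, against 20.6% of all genes. In the fit of only the brighter genes 8 of 29 members were called, near the 25.8% of those genes. With the block 10 were called (20.4% of all genes), adding Hspa4 (0.16) and Pdia3 (0.18) as higher and Edem1 (-0.25) as lower. Both siRNAs were set against the same siControl arrays, so their changes are not independent.

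The Hsp70 pair fell. Hspa1b read 10.33, 10.56, 10.90 and 11.13 with siControl, 9.90, 10.19, 9.98 and 10.10 with siKeap1-1 and 9.67, 9.60, 9.45 and 9.66 with siKeap1-2. The 3 groups did not overlap, with siControl highest and siKeap1-2 lowest. The changes were -0.69 ± 0.14 and -1.13 ± 0.14 (limma adjusted p 0.0067 and 0.000343). Hspa1a read 6.72, 6.34, 6.94 and 7.09 with siControl, 6.14, 6.14, 6.37 and 6.14 with siKeap1-1 and 6.23, 6.06, 5.85 and 5.81 with siKeap1-2. Array 3 of siKeap1-1 reached into the siControl range. Its changes were -0.58 ± 0.15 and -0.79 ± 0.15 (limma adjusted p 0.0196 and 0.00447). The siControl arrays of both genes were the widest of the 3 groups, and the call of Hspa1a with siKeap1-1 was lost without siControl array 3 or 4 or siKeap1-1 array 2 (adjusted p up to 0.0601 by limma).

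Dnajb4 rose with both. It read 10.60, 10.47, 10.60 and 10.83 with siControl, 11.10, 11.13, 11.20 and 11.35 with siKeap1-1 and 11.07, 11.02, 11.08 and 11.19 with siKeap1-2. Every Keap1 siRNA array lay above every siControl array. The changes were 0.57 ± 0.08 and 0.46 ± 0.08 (limma adjusted p 0.000621 and 0.0033), and between the siRNAs the difference was 0.11 ± 0.08. Hspd1 read 11.70, 11.56, 11.64 and 11.61 with siControl, 11.90, 11.80, 12.02 and 11.75 with siKeap1-1 and 11.80, 11.82, 11.81 and 11.74 with siKeap1-2, all higher than siControl. Its change was 0.24 ± 0.06 with siKeap1-1 (limma adjusted p 0.0213) and 0.17 ± 0.06 with siKeap1-2 (0.118 by limma).

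Hsph1 and Dnaja1 separated the siRNAs from each other. Hsph1 read 13.79, 13.80, 13.88 and 13.77 with siControl, 13.91, 13.93, 13.94 and 13.92 with siKeap1-1 and 13.43, 13.46, 13.44 and 13.42 with siKeap1-2. The arrays of a group lay close together, and siControl lay between the siRNAs without overlap. Hsph1 changed by 0.12 ± 0.04 with siKeap1-1 (limma adjusted p 0.107) and fell by 0.37 ± 0.04 with siKeap1-2 (limma adjusted p 0.000194). Dnaja1 read 11.89, 11.91, 12.02 and 12.06 with siControl, 11.92, 11.95, 11.99 and 11.95 with siKeap1-1 and 11.77, 11.72, 11.79 and 11.78 with siKeap1-2. It fell by 0.20 ± 0.05 with siKeap1-2 (limma adjusted p 0.0251) and changed by -0.02 ± 0.05 with siKeap1-1.

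Of the ER genes, Sdf2l1 changed most with siKeap1-1. It read 10.59, 10.36, 10.40 and 10.52 with siControl, 11.14, 11.03, 10.85 and 11.04 with siKeap1-1 and 10.64, 10.57, 10.41 and 10.51 with siKeap1-2. Only the siKeap1-1 arrays stood apart, and the rise of 0.55 ± 0.08 had a limma adjusted p of 0.000574, against 0.06 ± 0.08 with siKeap1-2. Manf read 10.38, 10.07, 10.14 and 10.18 with siControl, 10.86, 10.60, 10.79 and 10.59 with siKeap1-1 and 10.51, 10.35, 10.40 and 10.20 with siKeap1-2. It rose by 0.52 ± 0.09 with siKeap1-1 (limma adjusted p 0.00227) and changed by 0.17 ± 0.09 with siKeap1-2.

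The J-domain partner Dnajb11 and its Hsp70, Hspa5, moved by less. Dnajb11 read 11.28, 11.24, 11.31 and 11.12 with siControl, 11.51, 11.42, 11.47 and 11.49 with siKeap1-1 and 11.36, 11.40, 11.35 and 11.31 with siKeap1-2. It rose by 0.23 ± 0.05 with siKeap1-1 (limma adjusted p 0.0116). Hspa5 read 13.44, 13.31, 13.22 and 13.40 with siControl, 13.69, 13.50, 13.55 and 13.56 with siKeap1-1 and 13.49, 13.32, 13.34 and 13.40 with siKeap1-2. It rose by 0.23 ± 0.07 with siKeap1-1 (limma adjusted p 0.0316). For both, the siKeap1-1 arrays lay above all others. With siKeap1-2 the changes were 0.11 ± 0.05 for Dnajb11 and 0.05 ± 0.07 for Hspa5, neither called.

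Pdia6 and Creld2 rose with both siRNAs. Pdia6 read 9.69, 9.33, 9.24 and 9.37 with siControl, 10.15, 9.86, 9.80 and 9.77 with siKeap1-1 and 9.94, 9.82, 9.69 and 9.73 with siKeap1-2. The siControl arrays lay below or level with the others, the highest of them being array 1. Its changes were 0.49 ± 0.11 and 0.39 ± 0.11 (limma adjusted p 0.0102 and 0.042). Creld2, an ER protein induced by ER stress, read 9.99, 9.86, 9.81 and 9.81 with siControl, 10.48, 10.16, 10.01 and 10.18 with siKeap1-1 and 10.40, 10.17, 10.16 and 10.11 with siKeap1-2. All arrays with a Keap1 siRNA lay above siControl, and array 1 was the highest in each group. Its changes were 0.34 ± 0.10 and 0.34 ± 0.10 (limma adjusted p 0.0363 and 0.0429).

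**Figure D3:**
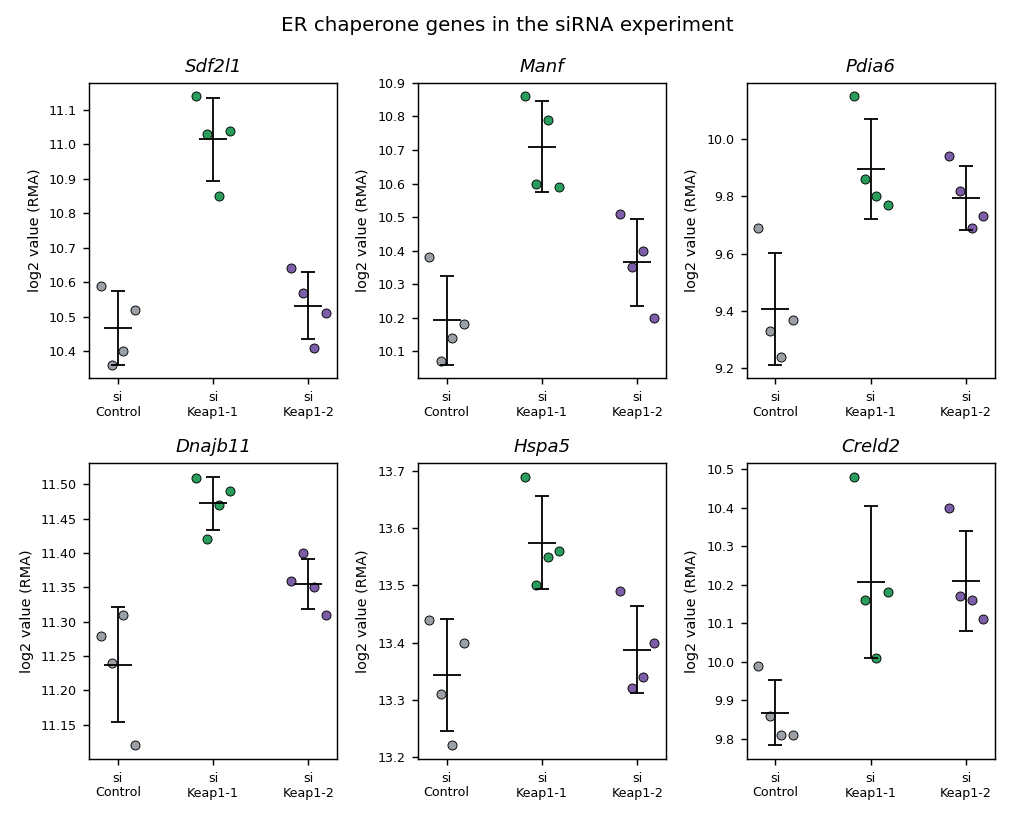
Log2 value (RMA) on each of 12 arrays (points) for 6 ER genes with siControl, siKeap1-1 and siKeap1-2, with the mean and standard deviation of 4 arrays (bars). The siKeap1-1 arrays lie above siControl for all 6 genes, and with siKeap1-2 only Pdia6 and Creld2 were called.

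Several of these calls depended on single arrays. By limma, with siKeap1-1 the call of Hspd1 was lost without siControl array 2 or 4 or siKeap1-1 array 1 (adjusted p up to 0.069), that of Hspa5 without siControl array 2 or 3 or siKeap1-1 array 1 or 4 (up to 0.094), and that of Creld2 without siControl array 2, 3 or 4, siKeap1-1 array 1, 2 or 4 or siKeap1-2 array 2 (up to 0.0914). With siKeap1-2, Dnaja1 was lost without siControl array 3 or 4 or siKeap1-2 array 1, 2 or 3 (up to 0.0785). Pdia6 was lost without siControl array 2, 3 or 4, siKeap1-1 array 2 or any siKeap1-2 array (up to 0.114), and Creld2 without siControl array 2, 3 or 4, siKeap1-1 array 2 or 4 or siKeap1-2 array 1, 2 or 3 (up to 0.11). With siKeap1-2 the count then fell to 4 members without siControl array 3 or 4 or siKeap1-2 array 1, 2 or 3, where 7.48% to 8.99% of all genes were called.

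The direct comparison of the siRNAs tested those differences. With siKeap1-1 above siKeap1-2, 5 of 33 members were called (7.45% of all genes, 3.57% higher and 3.88% lower), and 0 with siKeap1-1 below. They were Hsph1 (0.49 ± 0.04, limma adjusted p 6.13e-05), Sdf2l1 (0.48 ± 0.08, 0.00289), Edem1 (0.36 ± 0.08, 0.0245), Manf (0.35 ± 0.09, 0.0379) and Dnaja1 (0.19 ± 0.05, 0.0477). Edem1, which marks misfolded glycoproteins for disposal, read 12.28, 12.15, 12.18 and 12.06 with siControl, 12.26, 12.19, 12.51 and 12.13 with siKeap1-1 and 12.05, 11.90, 11.89 and 11.82 with siKeap1-2. It lay lowest with siKeap1-2. Medians were 0.11 for either class and 0.00 over all genes, and groups did not overlap for 8 members, against 13.2% of all genes. In the fit of only the brighter genes 5 of 29 members were called, near the 18.3% of those genes. With the block 9 were called (14.6% of all genes), adding Hspb1 (0.42), Hspa5 (0.19) and Dnajc3 (0.19) as higher and Herpud1 (-0.25) as lower. Hspb1 was at 0.22 without siKeap1-1 array 3 and Herpud1 at -0.15 without siKeap1-2 array 1.

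Of these 5 calls, by limma, only Hsph1 and Sdf2l1 kept theirs without each array. Edem1 was lost without siKeap1-2 array 2, 3 or 4 (adjusted p up to 0.0676). Manf was lost without siControl array 3 or 4, siKeap1-1 array 1 or 3 or siKeap1-2 array 2, 3 or 4 (up to 0.0965), and Dnaja1 without siControl array 2 or 3 or any array of either Keap1 siRNA (up to 0.134). The count was then 3 without siControl array 3 or siKeap1-1 array 1 or 3 (6.25% to 7.32% of all genes), and 2 without siKeap1-2 array 2, 3 or 4 (4.67% to 5.84%). In the siRNA experiment 4 of 9 macrophage markers were lower with siKeap1-1 and 3 with siKeap1-2, where 6.39% and 4.89% of all genes were lower. There 3 of 10 neutrophil markers were higher with siKeap1-1 and 2 with siKeap1-2, where 8.67% and 6.32% of all genes were higher. Among the other lists, 2 of 6 dendritic and 1 of 5 NK cell markers were lower with siKeap1-1. With siKeap1-2, 2 of 5 endothelial markers were lower, and 1 of 7 stromal markers was higher with each siRNA. The summed macrophage signal was 16.66 to 16.71 with siControl, 16.55 to 16.61 with siKeap1-1 and 16.54 to 16.59 with siKeap1-2. The summed neutrophil signal was 13.67 to 14.23, 14.13 to 14.40 and 14.07 to 14.54 in the same order. Their part in the chaperone values was not tested.

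The 12 members called in no comparison included 4 of the cytosol and mitochondria and 8 of the ER. Hspa8, the constitutive Hsp70, had group means of 14.19 to 14.29 among the compound groups and of 14.31 to 14.43 among the siRNA groups. Hsp90aa1, the inducible Hsp90, ranged over 0.21 and 0.10, and Dnajb1, the main J-domain partner of inducible Hsp70, over 0.17 and 0.15. Hspa9, the mitochondrial Hsp70, ranged over 0.29 and 0.06, with a pooled SD of 0.30 in the compound experiment. For these cytosolic and mitochondrial genes, the spread between arrays was of the order of the range between group means.

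Of the ER members without a call, Hsp90b1 (Grp94) had means over a range of 0.15 and 0.20 in the compound and siRNA experiments, Calr of 0.23 and 0.10 and Sel1l, of the disposal complex, of 0.13 and 0.13. Dnajb9, a J-domain protein that restrains the sensor Ire1, ranged over 0.19 and 0.15 and Herpud1, which recruits the disposal machinery, over 0.19 and 0.25. Pdia3, which folds glycoproteins, ranged over 0.27 and 0.21, and Pdia4, another isomerase, over 0.03 and 0.12. Xbp1, the transcription factor made active by Ire1, had means from 9.76 to 10.10 in the compound experiment and a pooled SD of 0.27. Its active form arises by splicing, which these probe sets were not shown to separate.

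Several probe sets were listed for 25 members, and in 22 of them they disagreed, either in direction by over 0.3 or in that 1 was called and another was not. Each probe set was tested with all 34945 that name 1 gene, of which 22.6% were called in DMSO and 28.2% under RA839 between KO and WT, and 12.4% with siKeap1-1, 8.77% with siKeap1-2 and 5.54% between the siRNAs. For RA839 the shares were 0.421% in WT, 0% in KO and 0.0486% for their difference. Over 200 pairs of member and comparison, 48 had opposite signs by over 0.3, 42 held called and uncalled probe sets and 2 held calls in both directions. Both of these were Dnajc3. Between KO and WT, its probe sets 1433887_at and 1419163_s_at rose by 0.63 and 0.69 in DMSO and by 0.53 and 1.11 under RA839, and 1419162_s_at fell by 0.33 and 0.29. The remaining probe sets, 1449372_at (-0.37 and -0.19) and 1449373_at (0.80 and 0.96), were not called. With siKeap1-1 it was 1419162_s_at (0.40) and 1449372_at (0.27) that rose, and 1433887_at changed by 0.08. The data do not say which transcript forms these probe sets read.

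**Figure D4:**
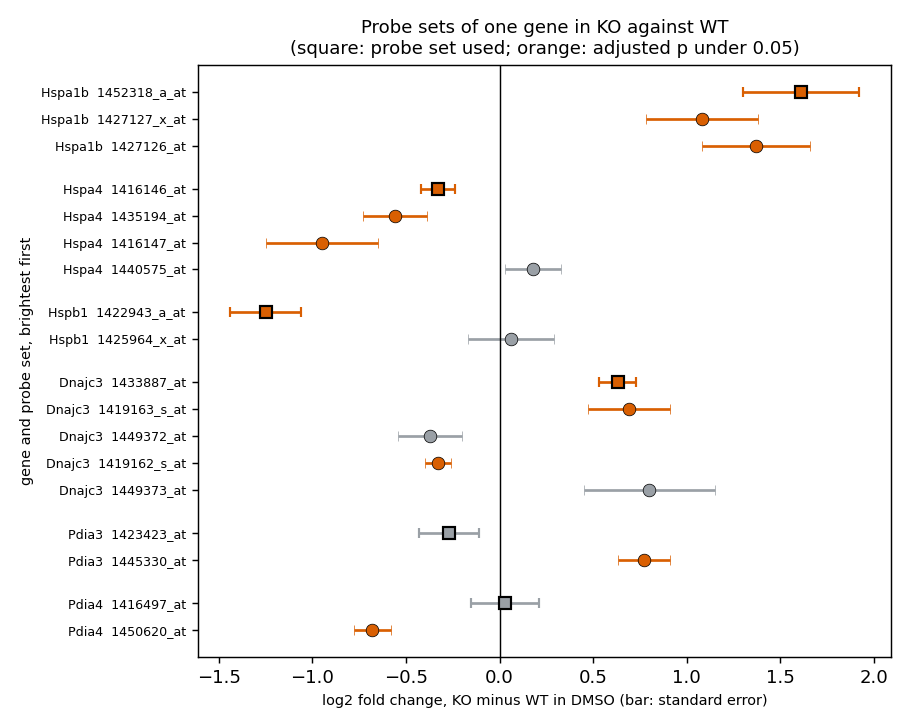
Log2 fold change between KO and WT in DMSO (points, with standard errors as bars) of each probe set of 6 chaperone genes, with squares for the probe set used and orange for a limma adjusted p under 0.05 over all probe sets. The 3 probe sets of Hspa1b agree in direction, and those of Dnajc3 and Pdia3 lie on both sides of 0.

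For Hspa1b, 1452318_a_at, 1427127_x_at and 1427126_at were all called higher in KO in DMSO (1.61, 1.08 and 1.37) and under RA839 (2.63, 1.97 and 1.81). With siKeap1-2 all were called lower (-1.13, -0.93 and -0.72), and with siKeap1-1 1427126_at was not (-0.32). With RA839 in WT they lay between -0.35 and 0.02. Hspb1 rests on 1422943_a_at alone, since 1425964_x_at changed by 0.06 in DMSO and by -0.27 under RA839 between KO and WT and was not called. For Hspa4, 1416146_at, 1435194_at and 1416147_at were called lower in KO in DMSO (-0.33, -0.56 and -0.95) and 1440575_at was not (0.18). Under RA839 only 1435194_at was (-0.55).

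Other members had a call on a probe set that the rule did not use. In KO against WT, Pdia3 rose by 0.77 in DMSO and 0.86 under RA839 on 1445330_at, against -0.27 and 0.00 on 1423423_at. Pdia4 fell by 0.68 and 0.55 on 1450620_at, a dim probe set with a mean of 3.84, against 0.03 and -0.02 on 1416497_at. Dnajb1 rose by 0.29 and 0.38 on 1416756_at (-0.10 and -0.15 on 1416755_at), Hspa5 by 0.25 and 0.30 on 1427464_s_at (0.00 and -0.06 on 1416064_a_at), and Xbp1 by 0.54 and 0.59 on 1420886_a_at (0.34 and -0.05 on 1437223_s_at). Sel1l fell by 0.37 and 0.35 on 1425187_at, against -0.07 and 0.07 on 1436774_at. So among these ER genes an unused probe set was higher in KO for Pdia3, Hspa5 and Xbp1 and lower for Pdia4 and Sel1l. The brighter probe sets used for them did not pass.

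Dnaja1 differed in direction. In DMSO 1460179_at fell by 0.45 in KO while 1416288_at changed by -0.07, and under RA839 1416288_at rose by 0.25 while 1460179_at changed by -0.15 and 1459835_s_at by -0.23. Hspb8 rose by 0.27 in DMSO on the dim 1417013_at and fell by 0.36 under RA839 on 1456434_x_at. Hsp90b1 rose in DMSO on 1438040_a_at (0.34, against 0.15 on 1415889_a_at), Edem1 under RA839 on 1451218_at (0.30, against -0.14 on 1424065_at) and Hyou1 under RA839 on 1423290_at (0.80, against 0.27 on 1423291_s_at and -0.19 on 1451913_a_at). Over all probe sets the used ones of Canx and Hyou1 were not called in DMSO (limma adjusted p 0.0506 and 0.0537). For Canx, 1428935_at changed by 0.34 and 1422845_at by -0.08.

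In the siRNA experiment, Hsp90aa1 rose with siKeap1-1 by 0.36 on 1426645_at and by 0.32 on 1437497_a_at, while 1438902_a_at changed by 0.01, 1441827_x_at by -0.08 and 1433251_at by 0.08. Hsp90b1 rose by 0.28 on 1438040_a_at and Hyou1 by 0.48 on 1423290_at, which brings both into the group of ER genes with a rising probe set. Dnajb4 rose on 1451177_at and 1431734_a_at with siKeap1-1 (0.57 and 0.34) and siKeap1-2 (0.46 and 0.42), and not on 1439524_at (0.23 and 0.00). Pdia6 rose with siKeap1-1 on 1423648_at and 1430983_at (0.49 and 0.57), and with siKeap1-2 on the first alone (0.39 and 0.06). Between the siRNAs, Hsph1 differed by 1.07 on 1423566_a_at and 0.49 on 1425993_a_at. Hspa8 and Hspa9 had probe sets of opposite sign with no call, such as 1455789_x_at and 1431182_at of Hspa8 under RA839 between genotypes (-0.02 and 0.41) and 1431274_a_at and 1447728_x_at of Hspa9 with RA839 in WT (-0.33 and 0.38).

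Chaperones and stress genes outside the 34 give a wider view. Of 41 other cytosolic or mitochondrial chaperone genes, RA839 in WT raised 2 (4.88%, against 0.66% of all genes), Bag2 (0.76 ± 0.12, limma adjusted p 0.00532) and Dnajb2 (0.50 ± 0.09, 0.0114). In KO it called 0, with 1 at an unadjusted p under 0.05 by limma (1.76% of all genes). Bag2, a nucleotide exchange factor like Bag3, was lower in KO in DMSO (-0.70) and under RA839 (-1.29) and higher with siKeap1-1 (0.97) and siKeap1-2 (1.23). Between KO and WT 4 were higher and 8 lower in DMSO (29.3%, against 25.1% of all genes), with Hspa13 (0.55), Dnaja4 (-1.04) and Hsf4 (-0.57) among the largest, and 9 higher and 6 lower under RA839 (36.6%, against 30.4%), with Fkbp4 (0.71), Dnaja3 (0.47) and Hsf4 (-0.66). With siKeap1-1 9 were higher and 2 lower (26.8%, against 15.1%), with Fkbp5 (0.71), Dnaja4 (0.48) and Cct3 (-0.50). With siKeap1-2 3 were higher, Bag2, Fkbp5 (0.47) and Dnaja2 (0.15), and 0 lower (7.32%, against 11.2%).

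Of 32 other ER genes, RA839 called 0 in WT and 0 in KO by limma. At an unadjusted p under 0.05 limma had 4 and 0 of them (10.4% and 1.76% of all genes). Between KO and WT 3 were higher and 2 lower in DMSO (15.6%, against 25.1% of all genes), and 6 higher and 3 lower under RA839 (28.1%, against 30.4%). Derl3, of the ER disposal channel, fell by 1.07 ± 0.10 and 0.92 ± 0.10 (limma adjusted p 4.36e-06 and 1.23e-05). Fkbp11, a folding enzyme of secretory cells, fell by 1.06 ± 0.17 and 0.83 ± 0.17 (limma adjusted p 0.000456 and 0.0022), and the disulfide isomerase Pdia5 rose by 0.65 and 0.49. With siKeap1-1 5 were higher and 1 lower (18.8%, against 15.1%), led by Edem2 (0.38), Txndc11 (0.30) and Dnajc10 (0.30). With siKeap1-2 2 were higher, Edem2 (0.49) and Txndc11 (0.27), and 0 lower (6.25%, against 11.2%).

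Of 12 sensors and effectors of the unfolded protein response, limma called 0 with RA839 in either genotype (0.66% of all genes in WT, 0% in KO). Between genotypes in DMSO it called 0 as well (25.1% of all genes). At an unadjusted p under 0.05 limma had 0, 0 and 3 of the 12 in these comparisons, where 1891, 321 and 6774 of 18193 genes were. The KO arrays spread more widely than the WT arrays for several effectors in DMSO, with an SD (n = 4) of 0.93 against 0.14 for Trib3, 1.03 against 0.35 for Ppp1r15a and 0.75 against 0.25 for Ddit3. These 3 were chosen after their values were seen. Under RA839 the sensor Atf6 was higher in KO (0.51), and Mbtps2, a protease that frees Atf6 (-0.38), and Chac1, a glutathione-degrading target of the response (-1.02), were lower. That is 25% of the 12, against 30.4% of all genes. With siKeap1-1 Ppp1r15a, which restores translation, was higher (0.30) and Ddit3 (Chop, -0.39) and Mbtps2 (-0.22) were lower (25%, against 15.1% of all genes). With siKeap1-2 Ppp1r15a was the only one called, at 0.34 (8.33%, against 11.2% of all genes). Between the siRNAs only Chac1 was called, lower with siKeap1-1 (-0.45), or 8.33%, against 7.45% of all genes.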

How the data were processed

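RNA of 28 samples (7 groups of 4) was measured on mouse expression arrays, 1 array per sample. The values are log2 expression values that the authors deposited as 1 table of 45101 probe sets, made with RMA per the submitters' processing notes (its version was not given). They were used as deposited. No pair of arrays was identical. RMA takes probes together and shrinks differences of dim probe sets, and its log2 values carry no counts, so the number of arrays limits the precision.

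Gene names came from the platform's annotation, where 34945 probe sets had 1 gene and were no controls (932 were listed with several genes and left out). Each of 18193 genes was represented by its brightest probe set, judged on the mean of the 28 arrays. limma 3.58.1 (R 4.3.3; lmFit and eBayes, two-sided, Benjamini-Hochberg over all genes) was fitted to each experiment apart, with 1 coefficient per group and no replicate block, and was tested on simulated data. The groups of an experiment share 1 estimate of the spread.

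Groups carry the same replicate numbers. The deviations of same-numbered arrays from their group means correlated at 0.27 to 0.46 within WT, 0.66 to 0.70 within KO and 0.12 to 0.66 in the siRNA experiment (the lowest and highest of the pairs), and at -0.29 to -0.01 between the genotypes, so that the numbers were taken to pair arrays within a genotype and within the siRNA experiment only. What they share was not given. Alternatives were the replicate block, a trended and robust prior, the brighter genes, no x_at or s_at probe sets, the mean of all probe sets, median centring, quantile normalization, the groups compared alone, an adjusted p under 0.01 and leaving out each array.

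The members, lists and tests were chosen with earlier results of these data known. Every called member is given with the value of each array. Probe sets that differ in direction by over 0.3, or of which 1 passes and another does not, are shown for some comparisons only. Of the other lists, genes with large called changes are named. Promoter windows are the 250 bases before a start in a RefSeq table.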

Additional observations from a re-analysis of the deposited data

Results flagged for a closer look

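In 14 of the 231 groups of 4 arrays (33 genes in 7 groups), 1 array stood apart from the others by Dixon's test at the 95% level, or 6.06%. Chance alone gives about 1 in 20.

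WT RA839 array 2 held 6 of the 14. It read 12.54 for Hspd1 (11.57 to 11.74 on the other arrays of its group), 13.53 for Hspe1 (13.85 to 13.90) and 12.78 for Hsp90aa1 (12.30 to 12.37). It read 10.43 for Bag3 (10.63 to 10.67), 11.62 for Dnajc3 (11.35 to 11.38) and 10.98 for Pdia3 (11.81 to 11.90). The same array had the high 3′ minus 5′ signals for Gapdh and Actb, and the part of that in these values was not tested.

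In the other compound groups, Hsp90aa1 read 11.98 on WT DMSO array 4 (12.32 to 12.35 on the others). On KO DMSO arrays, Hspb8 read 5.0 on array 1 (5.13 to 5.15) and Hspa5 13.28 on array 3 (13.20 to 13.21). In the siRNA experiment, Hspa1a read 6.37 (6.14 on the others) and Hsp90b1 12.35 (12.17 to 12.19) on siKeap1-1 array 3. Pdia3 read 11.83 on siControl array 1 (11.61 to 11.64) and Dnajb9 12.85 on siControl array 2 (12.78 to 12.79). Sel1l read 13.04 on siKeap1-2 array 4, against 13.01 on the others.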

How the results depend on the processing

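Of 43 calls, 24 held at an adjusted p under 0.05 in every alternative fit that included the gene, and 27 without each array. The stricter threshold of 0.01 is not part of these counts. For RA839 in WT the count of called members went from 0 to 1 (Dnajb4) with the replicate block, a trended and robust prior, the brighter genes, quantile normalization or only the groups compared. Those fits called 2.67%, 0.737%, 1.06% (of the brighter genes), 0.709% and 0.357% of all genes, in that order. It stayed at 0 in KO and for the difference under every alternative. With the replicate block, siKeap1-1 had 16 (24% of all genes) and the siRNAs differed in 9 (14.6%), the pairs being those of the replicate numbers. The block across genotypes, which the numbers do not pair, gave 9 in DMSO (26.8% of all genes) and 12 under RA839 (32%). With an adjusted p under 0.01 the counts were 5 and 7 between genotypes (13.5% and 17.1% of all genes). They were 4 with either siRNA (8.07% with siKeap1-1, 5.45% with siKeap1-2) and 2 between them (3.26%). With only the groups compared the last was 3 (4.64%). Leaving out 1 array gave 0 to 1 for RA839 in WT, 7 to 12 and 8 to 15 between genotypes, 7 to 12 and 4 to 10 with the siRNAs and 2 to 6 between them. The share of all genes moved between these fits too, such as from 25.1% to 31.2% in DMSO without WT RA839 array 2. Of 5880 member values, 5686 kept their side of the threshold, 118 lost and 72 gained a call. Direction was compared only where the main fit or the alternative made a call, so uncalled values may have changed sign. With the mean of all probe sets, 3 reversed: Pdia3 0.25 and Pdia4 -0.33 between genotypes in DMSO, and Dnaja1 -0.04 under RA839. Pdia3 under RA839 became -0.22 without WT RA839 array 2 and reached 0.08 without array 3. The causes were not tested. Scaling moved the median of all genes by -0.010 to 0.020. Dim probe sets, such as those of Hspa1a, Hspb1 and Hspb8, limit what these arrays resolve.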
